A study of Homo sapiens with 59 samples.

Results

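The promoters and surrounding DNA of 10 core genes of the circadian clock were examined in NCI-H661 cells, out of 20007 protein-coding genes with a promoter window on hg38. The genes were the activators BMAL1, BMAL2, CLOCK and NPAS2, the repressors PER1, PER2, PER3, CRY1 and CRY2, and the nuclear receptor NR1D1. The set was selected on its H2AK119ub domain calls: BMAL2 had lost its H2AK119ub window in 2 knockdown lines, so the H2AK119ub values of BMAL2 in those lines are given as a description without a test. A promoter was the 3001 bases centered on the start site of the representative GENCODE 44 transcript, and it was called marked by a histone modification where at least 300 bases lay under domains with a log2 fold of ChIP over input above 1.

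NCI-H661 is an established human line from a lung large cell carcinoma that expresses DPPA2 and DPPA4, small DNA-binding factors of the early embryo. In the knockdown experiment, doxycycline-inducible hairpins against DPPA2 (shDPPA2), DPPA4 (shDPPA4) or both (shDPPA2+4) were carried by sorted bulk populations. The hairpins were switched on over 7 days with doxycycline (DOX) at 2 µg/ml, or left off with water (H2O), and H3K4me3, H3K27me3 and H2AK119ub were profiled in 2 replicates per line and treatment. In the other experiment, A-485, a catalytic inhibitor of the p300 and CBP acetyltransferases, was given to parental cells at 10 µM over 1 day beside DMSO as vehicle, and H3K27ac (2 replicates), H2AK119ub (2), H3K27me3 (3) and, in DMSO alone, SUZ12 (1) were profiled. A line with a non-targeting hairpin is not analysed here, so an effect of doxycycline itself cannot be told apart from that of the hairpins. The study describes its replicates as biological and as processed in whole batches, whereas the labels give only a number for each. In bulk chromatin, fewer cells with a mark and less mark per cell cannot be told apart.

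The 51 domain lists held between 390762 and 19379794 ChIP reads in domains that passed the fold filter. The DMSO library of H3K27ac labelled replicate 4 stood apart, with 112108 such domains against 25946 to 33889 in the other 3 H3K27ac libraries, and by its input counts both H3K27ac lists labelled replicate 4 had been called against the input of the other treatment. Whether these inputs or the labels themselves had been exchanged cannot be told apart, and an exchange of labels would turn the sign of every H3K27ac difference in replicate 4. The DMSO library of H2AK119ub labelled replicate 3 overlapped other H2AK119ub libraries (median Jaccard index 0.120) no better than H3K27me3 libraries (0.124). The epithelial genes KRT18, EPCAM and CDH1 and the lung factor NKX2-1 had H3K4me3 at their promoters in 6 of 6 H2O libraries, whereas KRT8, the alveolar genes SFTPB, SFTPC and NAPSA and the blood genes PTPRC and CD3E had none. The promoters of DPPA2 and DPPA4 were 100% covered by H3K4me3 in DOX and in H2O libraries, so this mark does not check the knockdown.

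In the mammalian clock, BMAL1 pairs with CLOCK or NPAS2, and the pair binds E-box sequences and switches on PER and CRY genes, whose proteins then hold back their own activators. NR1D1 (REV-ERBα) is induced by the same pair and represses BMAL1, which closes another loop, and BMAL2 is a paralog of BMAL1. H3K4me3 and H3K27ac mark active promoters, whereas H2AK119ub is laid down by Polycomb repressive complex 1 and H3K27me3 by Polycomb repressive complex 2, of which SUZ12 is a subunit.

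The 250 bases before each start site were read from RefSeq (GRCh38.p14), where all 10 genes matched and all 10 stretches equaled hg38. They were searched on both strands for the E-box CACGTG, its variant CACGTT, the D-box TTATGTAA, the cyclic AMP element TGACGTCA and the nuclear receptor half-site AGGTCA, which do not overlap one another in these matches. CACGTT stood in 4 of the 10 (PER2, CRY1, CRY2 and NR1D1) and in 4.63% of 15345 RefSeq promoters, CACGTG in PER1 and in 7.90%, TTATGTAA in PER3 and in 0.482%, AGGTCA in PER1 and CRY2 and in 9.86%, and TGACGTCA in none of the 10 and in 2.48%. None of the 5 was in the window of an activator gene (BMAL1, BMAL2, CLOCK or NPAS2). BMAL2 had the lowest share of G and C of the 10, at 58.0% against a median of 63.2% over all promoters, and PER3 the highest, at 80.0%. The stretches of the 4 genes on which the chromatin results below turn, BMAL2, BMAL1, NR1D1 and CRY1, and of PER1 and PER3, which hold the E-box and the D-box, are shown 5′ to 3′ on the strand of the gene, with motif matches on either strand in capitals.
BMAL2, chr12:27332586-27332835, plus strand: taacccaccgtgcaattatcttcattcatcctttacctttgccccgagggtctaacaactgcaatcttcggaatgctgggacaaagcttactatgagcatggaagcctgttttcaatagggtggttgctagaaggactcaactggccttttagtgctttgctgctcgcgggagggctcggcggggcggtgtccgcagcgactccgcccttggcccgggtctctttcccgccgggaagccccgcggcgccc
BMAL1, chr11:13277540-13277789, plus strand: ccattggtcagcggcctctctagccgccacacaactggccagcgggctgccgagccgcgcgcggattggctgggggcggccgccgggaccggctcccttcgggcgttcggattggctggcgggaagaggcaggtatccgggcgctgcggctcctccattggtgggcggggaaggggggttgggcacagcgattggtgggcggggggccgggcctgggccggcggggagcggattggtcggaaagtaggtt
NR1D1, chr17:40100590-40100839, minus strand: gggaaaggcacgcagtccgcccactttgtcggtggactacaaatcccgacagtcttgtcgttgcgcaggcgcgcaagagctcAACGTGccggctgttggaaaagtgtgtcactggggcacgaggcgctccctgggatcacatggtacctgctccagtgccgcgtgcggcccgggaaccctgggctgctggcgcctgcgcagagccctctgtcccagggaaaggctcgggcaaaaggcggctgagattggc
CRY1, chr12:107093550-107093799, minus strand: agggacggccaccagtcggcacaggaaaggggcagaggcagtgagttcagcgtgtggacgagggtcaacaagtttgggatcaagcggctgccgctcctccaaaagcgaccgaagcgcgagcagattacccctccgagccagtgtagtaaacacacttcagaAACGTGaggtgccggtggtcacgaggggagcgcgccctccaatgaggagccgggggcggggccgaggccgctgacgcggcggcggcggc
PER1, chr17:8152405-8152654, minus strand: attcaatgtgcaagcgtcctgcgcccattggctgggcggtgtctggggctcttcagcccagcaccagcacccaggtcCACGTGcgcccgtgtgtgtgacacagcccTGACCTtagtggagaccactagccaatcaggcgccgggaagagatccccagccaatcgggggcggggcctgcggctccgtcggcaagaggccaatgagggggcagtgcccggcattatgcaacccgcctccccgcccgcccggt
PER3, chr1:7784041-7784290, plus strand: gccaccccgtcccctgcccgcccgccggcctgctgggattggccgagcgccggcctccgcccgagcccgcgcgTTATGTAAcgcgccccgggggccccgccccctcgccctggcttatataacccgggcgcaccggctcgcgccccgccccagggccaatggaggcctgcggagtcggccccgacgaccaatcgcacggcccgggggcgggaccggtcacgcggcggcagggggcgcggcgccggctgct

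The clock promoters fell into 3 kinds in untreated lines. BMAL1 and NPAS2 carried both H3K4me3 and H3K27me3 in both H2O replicates of all 3 lines, a state held by 7.37% to 8.61% of promoters and called bivalent. CLOCK, PER2, PER3, CRY1, CRY2 and NR1D1 carried H3K4me3 without H3K27me3 in all 3 lines, as did 58.4% to 58.7% of promoters. BMAL2 was mixed, with H3K4me3 in every library and H3K27me3 in 3 of 6 H2O libraries, and PER1 was mixed in shDPPA4 only. H2AK119ub lay over BMAL1, BMAL2, NPAS2, PER2, PER3 and NR1D1 in 6 of 6 H2O libraries and over CLOCK in 0 of 6, beside 46.9% to 57.8% of all promoters per library and 6655 of 20007 in all 6.

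**Figure D1:**
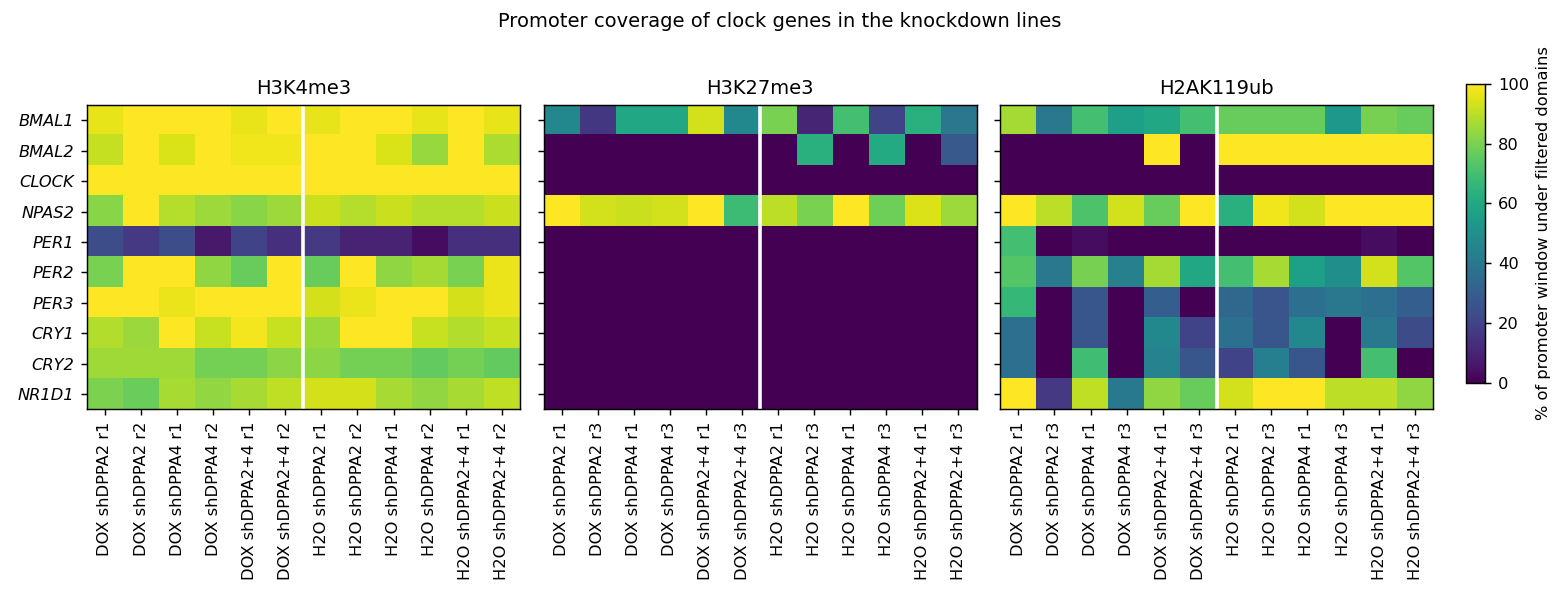
Percent of each 3001-base promoter window under filtered domains (color), for 10 clock genes (vertical axis) in the 12 libraries of each mark (horizontal axis, DOX libraries left of the white line and H2O libraries right of it, r for replicate). The BMAL2 row of the H2AK119ub panel is at 0% in 5 of 6 DOX libraries and at 100% in 6 of 6 H2O libraries, and 7 genes are at 0% for H3K27me3 throughout.

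BMAL2 was the clock gene whose H2AK119ub call changed with knockdown. Its window was 0% covered in both DOX replicates of shDPPA2, against 100% in both H2O replicates, and the same held in shDPPA4. In shDPPA2+4 it was 100% covered in DOX replicate 1 and 0% in DOX replicate 3, against 100% in both H2O replicates. BMAL2 was thus 1 of 8 clock promoters lost in shDPPA2 of those that could be lost, where lost means marked in every H2O library and in no DOX library of a line, and 6.34% of 8538 promoters were lost. It was 1 of 6 in shDPPA4, beside 11% of 8765 promoters, and none of 7 was lost in shDPPA2+4, beside 5.08% of 8721. These counts chose the set and nothing is read from them. No clock promoter gained H2AK119ub, although 2 could have in each line, and the share gained over all promoters was 3.32% in shDPPA2, 0.887% in shDPPA4 and 1.98% in shDPPA2+4.

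The loss was a crossing of the fold filter and not an absence of signal. A deposited H2AK119ub domain lay over the BMAL2 start site or within the window in all 12 libraries. Its log2 fold of ChIP over input was 0.98 and 0.31 in DOX replicates 1 and 3 of shDPPA2, against 1.52 and 1.57 in H2O. It was 0.70 and 0.61 in DOX libraries of shDPPA4, against 1.93 and 1.94 in H2O, and 1.33 and 0.94 in DOX libraries of shDPPA2+4, against 1.37 and 1.30 in H2O. The 6 DOX domains averaged 0.81 ± 0.35 and the 6 H2O domains 1.61 ± 0.27 (SD, n = 6 each), a difference of -0.79, and DOX was lower in 6 of 6 pairs of the same line and replicate. The DOX library just outside the filter was shDPPA2 replicate 1 at 0.98, and the H2O library just inside it was shDPPA2+4 replicate 3 at 1.30. Over the 4971 promoters with a deposited domain in all 12 libraries, the median difference was -0.34, with 5th and 95th percentiles of -1.05 and 0.42. With all deposited domains counted, BMAL2 was lost in none of the lines. Of all promoters lost under the filter, 8.13% in shDPPA2, 16.5% in shDPPA4 and 20.3% in shDPPA2+4 still had a deposited domain in both DOX libraries.

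**Figure D2:**
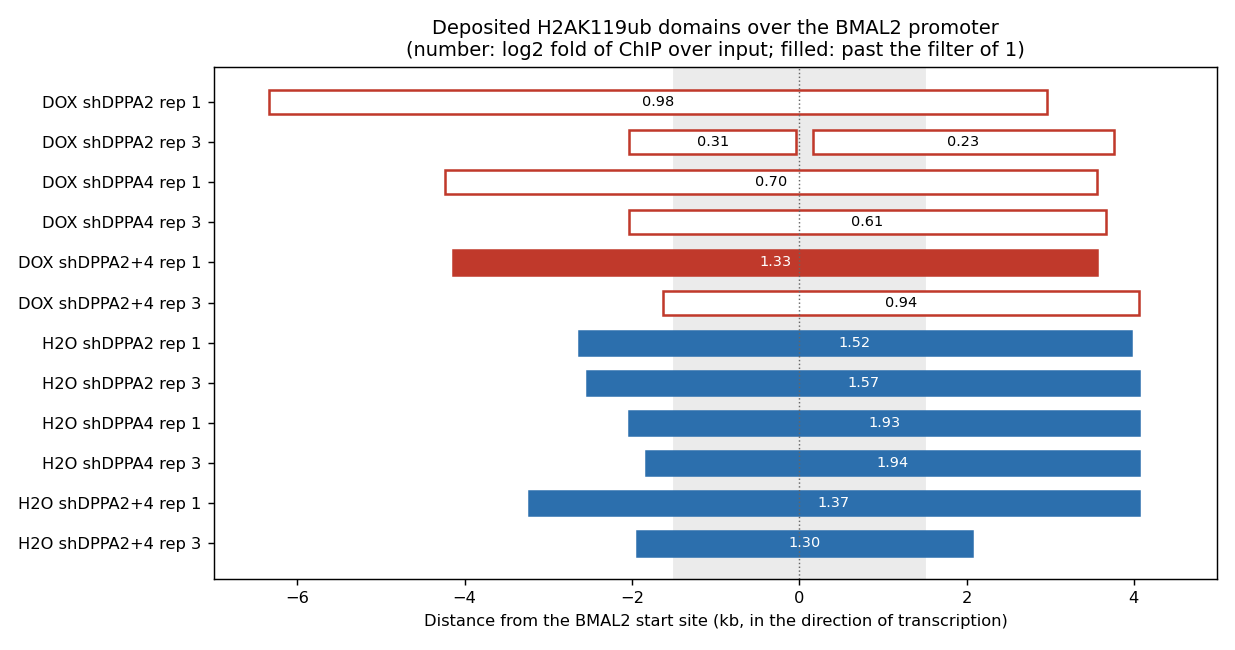
H2AK119ub domains deposited over the BMAL2 promoter, 1 line of the plot per library (DOX red and above, H2O blue and below), against distance from the start site in kb, with the promoter window in gray. The number in each bar is the log2 fold of ChIP over input and filled bars pass the filter of 1: 1 of 6 DOX libraries and 6 of 6 H2O libraries do.

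Of the 2 sides of that ratio at the BMAL2 domain, relative ChIP density was lower with DOX, and relative input density went both ways between lines. In shDPPA2, the domain held 531 and 118 ChIP reads with 128 and 27 input reads in DOX libraries, over 9300 and 2000 bases (for replicate 3, that of 2 domains with the larger overlap with the window), against 500 and 313 ChIP reads with 61 and 63 input reads in H2O libraries, over 6600 bases each. Set against the read density of all domains of the same library, the density of ChIP reads at BMAL2 was 1.57 ± 0.12 in DOX libraries and 1.96 ± 0.24 in H2O libraries (SD, n = 6 each), lower with DOX in 6 of 6 pairs. The density of input reads, on the same scale, was 2.69 and 3.12 in DOX libraries of shDPPA2, against 1.94 and 2.30 in H2O. It was 2.45 and 3.59 in DOX libraries of shDPPA4, against 1.90 and 1.82 in H2O, and 2.06 and 2.76 in DOX libraries of shDPPA2+4, against 2.76 and 3.44 in H2O. Input at BMAL2 was thus higher with DOX in both pairs of shDPPA2 and of shDPPA4, and lower in both pairs of shDPPA2+4. The call that chose the set is a fold over this same input, so nothing is read from how the lines differ. Each line and treatment had 1 input, shared by its libraries, and the part of the input in the BMAL2 call was not tested.

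BMAL1, the obligate partner of CLOCK, kept its H2AK119ub call in all 12 libraries while its fold was lower. The log2 fold of its domain was 2.41 and 1.77 in DOX libraries of shDPPA2, against 2.99 and 2.53 in H2O, 1.57 and 1.88 in DOX libraries of shDPPA4, against 2.70 and 2.66 in H2O, and 1.77 and 1.81 in DOX libraries of shDPPA2+4, against 2.65 and 2.85 in H2O. The groups did not overlap (1.87 ± 0.29 in DOX and 2.73 ± 0.16 in H2O, SD, n = 6 each). BMAL1 was the only one of the 5 clock promoters with a domain in all 12 libraries, beside BMAL2, NPAS2, PER2 and NR1D1, for which every DOX value lay below every H2O value, as was the case at 2.88% of the 4971 promoters. These BMAL1 domains held 4 to 17 input reads in DOX libraries and 6 to 13 in H2O libraries, and the relative density of input reads there was higher with DOX in 6 of 6 pairs, whereas that of ChIP reads was higher in 3 and lower in 3. Libraries of the same line and treatment shared an input, so the pairs are not independent for the input. The part of the input in this difference was not tested either. NPAS2, the CLOCK paralog, ran the other way, at 2.99 ± 0.56 in DOX and 2.37 ± 0.53 in H2O, with overlapping groups. CLOCK itself had only deposited domains below the filter, the one with the largest overlap having log2 folds of 0.62 to 0.83 in 4 of 6 DOX libraries and 0.57 to 0.84 in 6 of 6 H2O libraries.

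**Figure D3:**
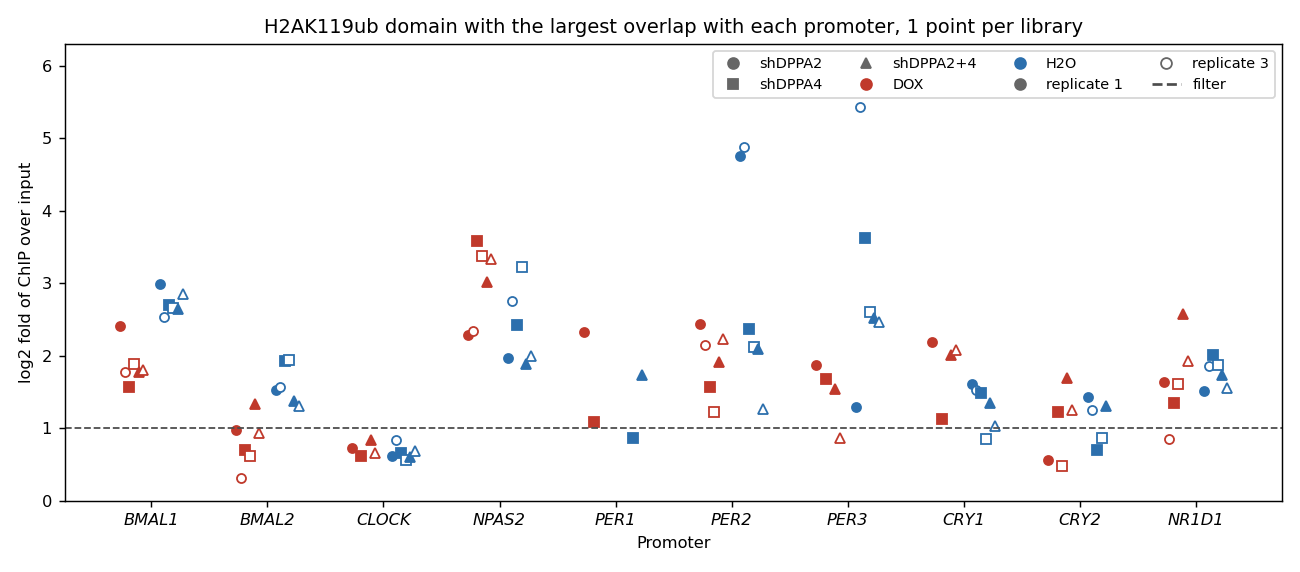
log2 fold of ChIP over input (vertical axis) of the deposited H2AK119ub domain with the largest overlap with each clock promoter (horizontal axis), 1 point per library with a domain, DOX in red left of H2O in blue, shapes for lines and fill for replicate. BMAL1 points do not overlap between DOX (1.57 to 2.41) and H2O (2.53 to 2.99), and CLOCK points stay under the dashed filter at 1.

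Reads in H2AK119ub regions were tested with edgeR's quasi-likelihood test (replicate number as a block, Benjamini-Hochberg over all regions, with a call needing an adjusted p below 0.05 together with a log2 change of 0.5 or more either way). No region of 6161 was called (0%), although 1327 had an unadjusted p under 0.05 and DESeq2 called 405, none at a clock gene. BMAL2 could not be fitted because the filtered domain was missing in 5 libraries. The region from the BMAL1 start site downstream (chr11:13277701-13281700) held 109 and 31.3 CPM (counts scaled to library size) in DOX libraries of shDPPA2, against 132 and 138 in H2O, 69.7 and 78.3 in DOX libraries of shDPPA4, against 92.6 and 101 in H2O, and 63.5 and 69.0 in DOX libraries of shDPPA2+4, against 109 in both H2O libraries. DOX lay below H2O in all 6 pairs, by -0.63 on the log2 scale (SE 0.26, adjusted p = 0.214). The NR1D1 region (chr17:40093201-40116000) covers most of the gene and runs on upstream of its start site at position 40100589. The neighbor THRA overlaps the gene by 1075 bases and the promoter window by 0, so the region holds little of THRA. The NR1D1 region changed by -0.65 on the log2 scale (SE 0.23, adjusted p = 0.181), with 4 of 6 pairs lower. It held 267 and 40.5 CPM in DOX libraries of shDPPA2, against 553 and 231 in H2O, 414 and 160 in DOX libraries of shDPPA4, against 330 and 220 in H2O, and 421 and 105 in DOX libraries of shDPPA2+4, against 384 and 213 in H2O. All 3 DOX libraries of replicate 3 lay below every H2O library of NR1D1, and the 3 of replicate 1 did not. Without replicate 1 the NR1D1 region was called, at -1.43 (adjusted p = 0.0263), as were 2351 of all 9083 regions tested there. NPAS2 changed by 0.15 (SE 0.13, adjusted p = 0.507), and the remaining promoter regions of BMAL1 and PER2 changed by less than their SE.

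Coverage of the promoter window by H2AK119ub, which is defined in every library, was compared with limma over 15400 promoters, of which none was called (0%) and 2028 had an unadjusted p under 0.05. NR1D1 was covered 67.9% ± 32.4 in DOX and 92.8% ± 6.47 in H2O (SD, n = 6 each), a difference of -24.9 points (SE 11.4, adjusted p = 0.388). The lowest NR1D1 values were 16.7% and 40.4%, in DOX replicate 3 of shDPPA2 and shDPPA4, against 83.3% in the lowest H2O library. PER3 was covered 20.5% ± 26.5 in DOX and 33.8% ± 4.99 in H2O (limma, adjusted p = 0.570), and 0% in 3 of 3 DOX libraries of replicate 3, against 26.4% to 40.0% in all H2O libraries. The same DOX replicate 3 libraries had the lowest median Jaccard indices with other H2AK119ub libraries of the knockdown lines (0.197 to 0.255), and their part in these values was not tested. PER1 was covered 70.0% in DOX replicate 1 of shDPPA2 and at most 3.47% in the other 11 libraries. A window on the PER1 transcript start at position -3951 from the representative one differed. It was covered 14.7% ± 19.3 in DOX (0% to 44.9%) and 22.2% ± 18.1 in H2O (0% to 51.5%). CRY1 ranged between 0% and 46.7% in DOX and in H2O, and CRY2 between 0% and 69.1% in DOX and 0% and 70.0% in H2O. No clock gene was called.

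H3K4me3 over clock promoters was close to equal in DOX and H2O libraries. edgeR called 115 of 22060 regions (0.521%), 42 higher and 73 lower, and none lay at a clock gene. The 10 promoter regions had log2 fold changes between -0.08 (CLOCK, SE 0.03, adjusted p = 0.159) and 0.18 (NPAS2, SE 0.06, adjusted p = 0.0583). At NPAS2 (chr2:100817801-100821800) the DOX libraries held 40.9 and 54.9 CPM in shDPPA2, against 34.8 and 48.9 in H2O, 43.2 and 47.8 in shDPPA4, against 32.6 and 44.5, and 37.7 and 60.3 in shDPPA2+4, against 39.1 and 49.8, so 5 of 6 pairs were higher. BMAL2 (chr12:27330101-27335800) averaged 123 CPM in DOX and in H2O libraries, within their spread. limma on coverage called 16 of 14442 promoters (0.111%), none of a clock gene. Coverage of 9 clock promoters lay between 75.8% and 100% in all 12 libraries, and that of PER1 was 17.3% ± 6.47 in DOX and 11.2% ± 4.55 in H2O (difference 6.11 points, SE 2.14, adjusted p = 0.463). The H3K4me3 of PER1 sat upstream: a window on the transcript start at position -3951 from the representative one was covered 97.2% ± 4.43 in DOX and 95.5% ± 7.33 in H2O. No clock promoter was lost or gained in any line, beside 0.125% of all promoters in shDPPA2, 0.215% in shDPPA4 and 0.15% in shDPPA2+4.

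**Figure D4:**
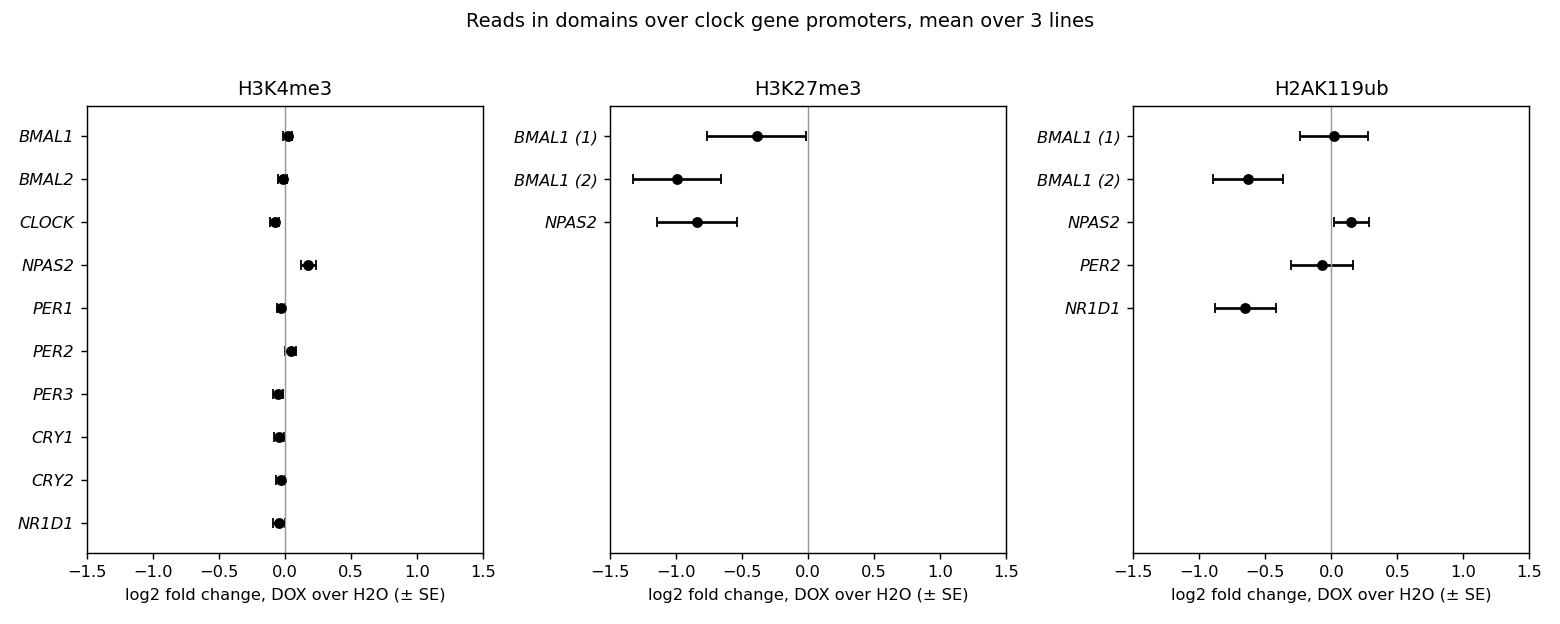
log2 fold change of reads in promoter regions, DOX over H2O averaged over 3 lines (points, with SE bars), from edgeR, for each mark and each clock gene with a region that could be fitted. BMAL1 (1) and (2) are its regions in order of position. H3K4me3 points lie within -0.08 and 0.18, and no region was called.

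H3K27me3 was confined to the promoters of BMAL1, NPAS2 and BMAL2 among the 10, and the other 7 had 0% coverage in all 12 knockdown-line libraries. The promoter region of NPAS2 (chr2:100817101-100822400) held 29.0 and 23.8 CPM in DOX libraries of shDPPA2, against 33.2 and 46.7 in H2O, 36.2 and 18.8 in DOX libraries of shDPPA4, against 38.2 and 78.4 in H2O, and 33.8 and 20.7 in DOX libraries of shDPPA2+4, against 39.1 and 54.6 in H2O. All 6 pairs were lower, by -0.84 on the log2 scale (SE 0.30, adjusted p = 0.133), short of a call. edgeR called none of 14942 regions (0%), although 3695 had an unadjusted p under 0.05, and DESeq2 called 1519, among them this NPAS2 region (-0.86, adjusted p = 0.0454). It was also called by edgeR without replicate 1 (-1.57, adjusted p = 0.00381), as were 4187 of all 15902 regions tested there. Without H2O replicate 1 of shDPPA4 it was called too (-1.07, adjusted p = 0.0241), among 2986 of 14999 regions. Its coverage did not fall with its reads, at 91.2% ± 11.6 in DOX and 88.0% ± 8.53 in H2O (SD, n = 6 each). Nor did the log2 fold over input of the NPAS2 promoter domain, at 2.80 ± 0.51 in DOX and 2.08 ± 1.00 in H2O. Relative ChIP density of that domain was 1.26 ± 0.14 in DOX and 1.20 ± 0.22 in H2O, higher with DOX in 5 of 6 pairs. The direction at this promoter thus depends on the measure. In reads, regions beside the promoter region ran the other way, with log2 fold changes of 0.58 upstream (adjusted p = 0.149) and of 0.83 and 0.66 in the NPAS2 gene body (adjusted p = 0.156 and 0.174), each higher in 5 or 6 of 6 pairs. The 0.83 region (chr2:100842301-100852800) was called without replicate 1 (1.43, adjusted p = 0.0358), among the same 4187 of 15902. These signs rest on TMM scaling: with the length of the domains in each library as an offset, 100% of H3K27me3 regions were lower with DOX, the NPAS2 regions included, with a median log2 fold change of -0.87 and none called.

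The BMAL1 region from the start site downstream (chr11:13277601-13281000) changed by -1.0 on the log2 scale for H3K27me3 (SE 0.33, adjusted p = 0.121), with all 6 pairs lower, and the region before it by -0.39 (SE 0.37, adjusted p = 0.524). BMAL2 had filtered H3K27me3 in none of the 6 DOX libraries and in 3 of 6 H2O libraries, all of replicate 3, at 63.3% in shDPPA2, 61.2% in shDPPA4 and 27.9% in shDPPA2+4 (mean difference -25.4 points, limma, SE 10.4, adjusted p = 0.302). Deposited BMAL2 domains of any fold lay in 6 of 6 H2O libraries and in 2 of 6 DOX libraries, both of shDPPA2+4, with 36 and 6 input reads in DOX and 10 to 43 in H2O. The 3 H2O libraries of replicate 3 were the shallowest of the mark in these lines, with 1085365 to 2227464 reads in filtered domains against 5951041 to 10545826 in the other 9, and the part of depth in the values of BMAL2, NPAS2 and BMAL1 was not tested. limma called none of 4644 promoters (0%, 755 at an unadjusted p under 0.05). No clock promoter was lost or gained, beside 1.08%, 0.63% and 0.9% of all promoters in shDPPA2, shDPPA4 and shDPPA2+4.

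By the labels, H3K27ac covered less of 9 of the 10 clock promoters with A-485 on the mean of 2 replicates. PER2 was covered 33.3% and 0% in A-485 libraries (replicates 2 and 4), against 73.3% and 93.3% in DMSO libraries. NR1D1 was covered 50.0% and 0% in A-485, against 53.7% and 100% in DMSO, and PER3 53.3% and 36.7%, against 76.6% and 90.0%. PER1 was covered 0% and 23.5% in A-485, against 30.1% and 86.8% in DMSO. Each of these stood lower with A-485 in both replicate pairs as labelled, and in replicate 2 alone, whose inputs fit its labels, 9 of the 10 clock promoters were lower and NPAS2 was at 0% in both libraries. CRY1 was covered 53.3% and 20.0% in A-485, against 66.6% and 56.7% in DMSO, CRY2 40.0% and 0%, against 63.3% and 43.3%, and BMAL2 40.0% and 60.0%, against 73.3% and 70.0%. CLOCK was the exception, at 70.0% and 96.4% in A-485 and 86.4% and 73.3% in DMSO. NPAS2 was covered in DMSO replicate 4 alone (65.4%). The differences ran between -66.7 points at PER2 (limma, SE 17.8, adjusted p = 0.215) and 3.33 at CLOCK, and no clock gene and none of 15011 promoters was called (0%, 3437 at an unadjusted p under 0.05).

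The lower H3K27ac coverage was shared by nearly all promoters: the median difference was -31.7 points and 98.8% of promoters were lower with A-485. The A-485 libraries held 603895 and 780375 reads in filtered H3K27ac domains, against 2709073 and 5647079 in DMSO libraries, and the part of depth in coverage was not tested. BMAL1 was the only clock promoter to lose its H3K27ac call, 1 of 9 that could be lost, beside 12.4% of 11650 promoters. Its DMSO domains were small, 300 and 900 bases with 12 and 23 ChIP reads and 1 and 5 input reads, at 10.0% and 30.0% of the window, against 0% in both A-485 libraries. The call depended on the settings: BMAL1 was not lost at a minimum of 1500 bases, where PER2 was (53.0% of 6749 promoters lost), above a log2 fold of 1.5, where NR1D1 was (12.1% of 11244), or from the 5′ end of the gene, where no clock promoter was (13% of 11222). In replicate 2 alone, BMAL1 and PER1 were lost, 2 of 9, beside 16.3% of 11779 promoters. None of 5148 promoters gained the mark (0%). Without DMSO replicate 2, limma called 5406 promoters, NPAS2 (-65.4 points, adjusted p = 0.000312) and BMAL1 (-30.0 points, adjusted p = 0.000153) among them, and without DMSO replicate 4 it called 1420, BMAL1 among them (-10.0 points, adjusted p = 0.00194). The remaining arm of 1 DMSO library was there assumed to vary like the A-485 libraries, which were both at 0% for these genes. Reads per region, scaled by TMM to the regions present in all 4 libraries, had a median log2 fold change of -0.01. This scaling sets a shift shared by the regions near 0, so the median cannot show whether there was one. edgeR called none of 8967 regions (0%, against 15 by DESeq2 and 662 at an unadjusted p under 0.05), and of the clock promoters BMAL2 changed by 0.59 on the log2 scale (SE 0.37, adjusted p = 0.854) and NR1D1 by -0.92 (SE 0.65, adjusted p = 0.877). With the length of the domains in each library as an offset, the median was 0.94 and 7953 regions were called, all higher with A-485, 9 of them at clock genes, and NR1D1 was at 1.06, so the direction of H3K27ac per region depends on the scaling.

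**Figure D5:**
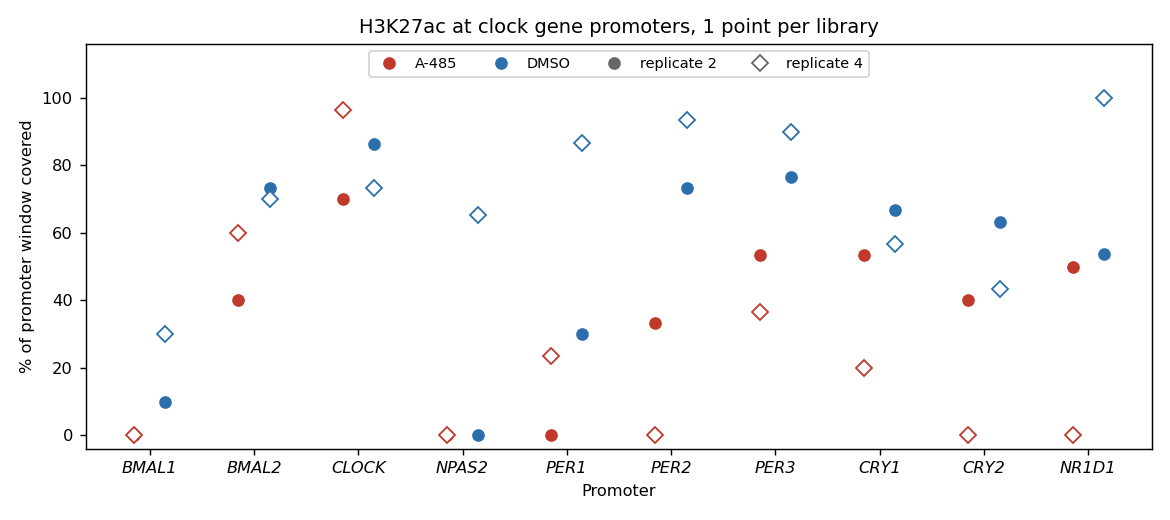
Percent of each clock promoter window (vertical axis) under filtered H3K27ac domains, 1 point per library, A-485 in red left of DMSO in blue, filled for replicate 2 and open for replicate 4. PER2 lies at 0% and 33.3% in A-485 and at 73.3% and 93.3% in DMSO, and CLOCK overlaps.

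H2AK119ub in the inhibitor experiment varied more between replicates than between treatments. CRY1 was the clock promoter that gained it, at 20.0% and 16.7% in A-485 libraries (12 and 13 ChIP reads, 5 and 4 input reads) against 0% in both DMSO libraries. It was 1 of 3 that could be gained, beside 1.13% of 11739 promoters, and it was not gained at a minimum of 1500 bases or above a log2 fold of 1.5, where BMAL2 was (1.74% of 12654). No clock promoter was lost, beside 8.15% of 3227. BMAL2 was covered 40.0% and 57.8% in A-485 libraries, against 0% and 98.8% in DMSO libraries, so the treatments overlapped. BMAL1 was covered 63.3% and 50.0% in A-485, against 63.3% and 0% in DMSO, and NR1D1 46.7% and 13.3% in A-485, against 73.3% and 27.1% in DMSO. limma called none of 9769 promoters (0%, 161 at an unadjusted p under 0.05), and without DMSO replicate 4 it called 1458, PER1 among them (-26.6 points, adjusted p = 0.0241). That fit sets the A-485 libraries, both at 0% for PER1, against the DMSO library that overlapped its own mark no better than H3K27me3, and its spread comes from the A-485 libraries alone. edgeR called none of 4515 regions (0%, against 0 by DESeq2 and 132 at an unadjusted p under 0.05), with NR1D1 at -0.58 (SE 0.36, adjusted p = 0.908).

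H3K27me3 in the inhibitor experiment lay over NPAS2 and BMAL1 as in the knockdown lines. NPAS2 was covered 70.0%, 73.3% and 53.3% in A-485 libraries, against 100%, 82.0% and 0% in DMSO libraries, the last being the shallow replicate 4. edgeR called none of 8822 regions (0%, against 1 by DESeq2 and 267 at an unadjusted p under 0.05) and limma none of 3839 promoters (0%, 24 at an unadjusted p under 0.05). No clock promoter was lost or gained, beside 0.045% of all promoters. With 0 clock promoters marked in DMSO replicate 4, 0 could be lost, so the count cannot show whether NPAS2 or BMAL1 kept the mark. Of the 8 that could be gained, 0 were, beside 0.0302% of 16556 promoters. Without replicate 4, 2 could be lost and 0 were, beside 4.63% of 2829 promoters.

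Over the genes with 10 kb on either side, the marks filled very different shares of the clock loci. H2AK119ub filled most at NR1D1, at 14.8% to 62.6% in DOX libraries and 19.7% to 67.6% in H2O libraries, a window of 27797 bases that reaches into THRA. PER1 (2.22% to 44.7% in DOX, 1.39% to 35.0% in H2O) and PER2 (11.4% to 25.1% in DOX, 11.5% to 18.6% in H2O) came next by their H2O means, and all 3 ranges overlapped between treatments. H3K4me3 filled 40.5% to 46.6% at PER1 in DOX libraries and 38.0% to 43.3% in H2O libraries, more than at any other clock gene. That window also reaches into the protein-coding genes VAMP2 and ENSG00000263620. With 2 kb on either side, PER1 no longer stood above NR1D1 in both treatments. The means were then 29.8% in DOX and 28.3% in H2O at PER1, and 28.3% and 28.8% at NR1D1. BMAL2 had 0.356% to 11.5% under H2AK119ub in DOX libraries, against 6.31% to 11.7% in H2O libraries. H3K27me3 at NPAS2 extended through the gene body, with 15.0% to 24.7% of the locus in DOX libraries and 4.93% to 20.6% in H2O libraries. H3K27ac filled less of all 10 loci with A-485 than with DMSO by the mean of 2 libraries, although with 2 kb on either side CLOCK averaged 7.28% in both. The median over all genes, with 10 kb on either side, was also lower, at 0.724% with A-485 and 5.05% with DMSO (means of 2 libraries). At NR1D1 H3K27ac filled 5.40% and 11.8% of the locus in A-485 libraries, against 84.1% in the DMSO library that stood apart and 13.7% in the other one. At PER1 it filled 15.0% and 21.1% in A-485, against 60.5% and 37.2% in DMSO.

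A list of 22 other clock genes, covering nuclear receptors, output factors, kinases and ligase subunits, had no gene past a test, and its changes of call are given beside the shares over all promoters. For H2AK119ub, FBXW11 (an F-box protein that targets PER for breakdown) was lost in shDPPA4, 1 of 13 that could be, beside 11% of all promoters. CUL1, the scaffold of that ligase, was lost in shDPPA2+4, 1 of 15 beside 5.08%, where SKP1, its adaptor, was gained, 1 of 5 beside 1.98%. CUL1 was covered 0% in both DOX libraries of shDPPA2+4, against 90.0% and 96.6% in H2O, and 100% and 0% in DOX libraries of shDPPA2, against 90.0% and 89.9%. FBXW11 was covered 0% in both DOX libraries of shDPPA4, against 25.4% and 51.2% in H2O. With A-485, the deubiquitinase gene USP2 lost H3K27ac (0% in both libraries, against 13.3% and 97.0% in DMSO), 1 of 16 beside 12.4%, and NFIL3, a D-box repressor, lost H2AK119ub (0% in both libraries, against 23.3% and 33.3% in DMSO), 1 of 4 beside 8.15%. No member of this list was called by edgeR or limma in any comparison.

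The promoters whose H2AK119ub coverage over the 12 knockdown-line libraries was most like that of BMAL2 were found by the mean absolute difference over libraries. DPY19L3 was identical (0 points), at 100% in DOX replicate 1 of shDPPA2+4 and in all H2O libraries and at 0% in the other 5 DOX libraries. SPINT2 (8.33 points), RICTOR (12.2), ZFP36 (12.4) and MYL6 (12.8) followed. DPY19L3, SPINT2 and ZFP36 likewise kept a deposited domain in 6 of 6 DOX libraries. In all, 2 promoters were within 10 points of BMAL2, and 6655 promoters were marked in every H2O library.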

How the data were processed

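Chromatin immunoprecipitation followed by sequencing was used, and 51 of the 59 samples had a domain list (8 were inputs). Per the submitters' processing notes and the study's methods, the authors trimmed reads with Trim Galore 0.6.6, aligned them with BWA 0.7.13 to hg38, handled them with SAMtools 1.9, Picard 2.6.0 and deepTools 3.5.0, and called domains of the histone marks against input with EPIC2. For SUZ12 the methods name MACS2 narrow peaks, whereas the deposited SUZ12 list has the columns of EPIC2 and was read as such. Each deposited list gives ChIP and input read counts, a p-value and its adjusted form, a score and a log2 fold of ChIP over input for every domain, 4391449 in all. The deposited p-value and score columns entered no test of their own. Mouse spike-in chromatin had been added, and its reads were not used here, so a shift shared by all regions is not seen after scaling.

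Domains with a log2 fold above 1 and an adjusted p under 0.05 were kept. Promoter windows of 3001 bases and genes with 10 kb on either side were taken from GENCODE 44. Regions that held a filtered domain in each library and averaged 10 reads or more were tested with edgeR 4.0.16 (TMM, quasi-likelihood), and promoter coverage with limma 3.58.1 (R 4.3.3), with line, treatment and replicate number as terms and Benjamini-Hochberg adjustment over all regions or promoters. The replicate block follows the study's methods, and deviations of same-numbered libraries in the knockdown lines had correlations between 0.24 and 0.71 (H2AK119ub), 0.33 and 0.51 (H3K4me3), or -0.09 and 0.68 (H3K27me3), and in the inhibitor experiment between 0.37 and 0.54. DESeq2 1.42.0, another scaling, other filters and windows, and libraries left out were the alternatives. The fits were tested on simulated data. Figures were drawn with matplotlib 3.10.9 in Python 3.11.15.

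All 10 clock genes were named. Of 22 other clock genes, those lost, gained or past a test were named, as were the 5 promoters most like BMAL2. The genes and lists were chosen with earlier results of these data known.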

Additional observations from a re-analysis of the deposited data

Results flagged for a closer look

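Of 39 groups of 6 libraries, 7 had a library whose gap to its nearest neighbor passed Dixon's limit. For normal values chance gives about 1 in 20, but coverage is bounded at 0% and 100%, so that rate need not hold here. No excess is read from the 7. BMAL2 was left out for H2AK119ub, whose calls chose the set. For H2AK119ub in DOX libraries, PER1 stood apart in shDPPA2 replicate 1 (70.0% of the promoter covered, nearest 3.47%). For H2AK119ub in H2O libraries, those that stood apart were BMAL1 in shDPPA4 replicate 3 (53.3%, nearest 76.7%), NPAS2 in shDPPA2 replicate 1 (63.3%, nearest 93.3%) and PER1 in shDPPA2+4 replicate 1 (3.47%, nearest 0%). In DOX libraries, NPAS2 also stood apart for H3K27me3 in shDPPA2+4 replicate 3 (68.7%, nearest 92.0%) and for H3K4me3 in shDPPA2 replicate 2 (100%, nearest 88.7%), as did PER3 for H3K4me3 in shDPPA4 replicate 1 (97.0%, nearest 100%).

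The single SUZ12 library, from DMSO-treated parental cells, entered no comparison. Its filtered domains covered 92.0% of the NPAS2 promoter, 57.8% of that of BMAL2 and 49.7% of that of BMAL1, and 0% of the other 7, so 3 of 10 clock promoters were marked, beside 12.2% of all promoters. The study's methods name another peak caller for SUZ12 than the list's columns show.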

How the results depend on the processing

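Libraries were left out singly, and log2 folds above 0.5 and 1.5 tried, after seeing the data. The clock promoters lost or gained for H2AK119ub went to 0 with all deposited domains or a log2 fold above 0.5, against 2. For H3K27me3 they went to 2 under both settings, against 0, through the loss of BMAL2 in shDPPA2 and in shDPPA4. Of all promoters that could be lost, 1.82% and 1.05% were lost in these lines with all deposited domains. At a log2 fold above 0.5 these shares were 2.09% and 1.01%. For A-485 the clock promoters lost or gained went to 1 with a minimum of 1500 bases or the 5′ end of the gene, against 2. At 1500 bases the 1 is PER2 in place of BMAL1 and CRY1, and from the 5′ end CRY1 alone. Above a log2 fold of 1.5 the count stayed at 2 but the genes were NR1D1 and BMAL2. Genes with 2 kb on either side gave 1 clock gene lower for H3K27me3, against 2.

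Without the replicate block, that is without pairing by number, H3K4me3 regions called fell to 0 against 115, and no call of a clock gene changed. DESeq2 called 405 regions for H2AK119ub, 40 for H3K4me3, 1519 for H3K27me3 (1 at a clock gene, NPAS2), 15 for H3K27ac and 1 for H3K27me3 with A-485. All deposited domains gave 50 H2AK119ub and 2 H3K27ac regions. Domain length as an offset gave 7953 H3K27ac regions (9 at clock genes) and 57 H2AK119ub regions with A-485. H2AK119ub coverage gave 1 promoter when marked in at least 50% of libraries and 2 at a log2 fold above 2.

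Reversed values under the offset were PER2 H3K4me3 (-0.033), NR1D1 H3K27ac (1.06) and NR1D1 H2AK119ub with A-485 (0.75). From the 5′ end, H2AK119ub coverage differed by 1.92 points at BMAL1 and -7.25 at PER1, and at a log2 fold above 2 by -10.0 at PER3 with A-485. The causes were not tested.

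With libraries left out, regions called ranged over 0 to 2351 for H2AK119ub (0 to 1 at clock genes, the highest without replicate 1), 0 to 337 for H3K4me3, 0 to 4187 for H3K27me3 (0 to 2 at clock genes), 0 to 197 for H3K27ac, and with A-485 0 to 41 for H2AK119ub and 0 to 29 for H3K27me3. Promoters called by coverage ranged over 0 to 190, 0 to 93 and 0 to 57 for H2AK119ub, H3K4me3 and H3K27me3 with DOX, and with A-485 over 0 to 5406 for H3K27ac (0 to 2 clock genes) and 0 to 1458 for H2AK119ub (0 to 1). Clock promoters lost or gained, then set 1 library against 1 in each line, ranged over 3 to 9 for H2AK119ub and 0 to 3 for H3K27me3. The 3, without replicate 1, were BMAL2 lost in each line, beside 5.57%, 6.85% and 5.13% of all promoters lost or gained in shDPPA2, shDPPA4 and shDPPA2+4. With A-485 the total was 6 for each number left out, but it mixes kinds of calls. A mark without that number kept its main calls, and H3K27me3 kept at least 2 libraries against 2. The 9 for H2AK119ub, without replicate 1, were BMAL2 and PER3 lost in 3 lines, CRY1 and CRY2 lost in shDPPA2, and CRY2 gained in shDPPA2+4. Beside them, 29.7%, 22.5% and 18.5% of all promoters were lost or gained in shDPPA2, shDPPA4 and shDPPA2+4. With A-485 the shares were 35.1% for H3K27ac without replicate 2 and 18.6% for H2AK119ub without replicate 3. Without replicate 4 they were 9.75% for H3K27ac and 14.5% for H2AK119ub. The range was -0.98 to -0.60 for the BMAL2 fold difference. Signs changed for the log2 fold changes of NPAS2 H2AK119ub (-0.23 to 0.27) and of H3K4me3 at PER2 (-0.0088 to 0.11), PER3 (-0.10 to 0.0046), CRY1 (-0.11 to 0.011) and NR1D1 (-0.10 to 0.00087), and for H2AK119ub coverage at PER3 with DOX (-32.1 to 5.55 points) and at BMAL1 (-6.68 to 56.7) and NR1D1 (-43.4 to 2.93) with A-485. The edgeR and limma fits of 2 against 2 libraries were not run without a replicate number, which leaves 1 against 1.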
